A study of Mus musculus with 11 samples.

Results

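The clustered protocadherins are 3 neighbouring families of cell-surface genes, alpha, beta and gamma. They were followed in mouse embryonic stem cells that had lost the DNA-binding protein CTCF and in cells that then carried reintroduced FL CTCF or H373R CTCF. Members were taken by symbol from the deposited tables, whatever their values, which gave 57 of 55228 rows: 13 alpha, 22 beta and 22 gamma genes. The gamma genes comprised 12 of subfamily A, 7 of subfamily B and 3 of subfamily C.

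All 11 RNA-seq libraries came from EN52.9.1 (CTCF-AID), an embryonic stem cell line in which a degron on endogenous CTCF lets auxin trigger its degradation. The libraries titled EV without auxin (EV untreated, 3 libraries, genotype label untreated and wild-type) were the reference, although these cells carry the same CTCF degron. The libraries titled EV with auxin (EV auxin, 2 libraries) were depleted of endogenous CTCF. Auxin-treated cells with reintroduced FL CTCF (FL auxin, 3 libraries) and with reintroduced H373R CTCF (H373R auxin, 3 libraries, titled ZF4) completed the set. Auxin was indole-3-acetic acid at 500 µM, and all cells were grown in serum and leukaemia inhibitory factor. No auxin-treated group kept its endogenous CTCF, and no untreated group carried reintroduced CTCF. Exposure to auxin and loss of endogenous CTCF therefore cannot be told apart in comparisons with EV untreated. Depletion below refers to EV auxin against EV untreated. The labels name 1 cell line, do not spell out EV, and give neither the length of the auxin treatment nor the promoter that drove the reintroduced CTCF. They also do not say whether replicates were separate cultures, so p-values measure the spread between these libraries, which may be technical.

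Clustered protocadherins are cadherin-like adhesion proteins of the neuronal surface. Neurons express different combinations of them, and matching of these combinations between membranes lets a neuron recognise itself. Each alpha or gamma gene begins with its own promoter and a long variable exon, which is spliced to constant exons shared by the whole cluster. Beta genes consist of their own exon. CTCF and cohesin bind most of these promoters and the distant enhancers and loop them together. The C-type genes (Pcdhac1, Pcdhac2, Pcdhgc3, Pcdhgc4 and Pcdhgc5) differ from the others in sequence and are regulated more uniformly among neurons.

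In the GRCm38 build the clusters lie in a row on the plus strand of chromosome 18, alpha at chr18:36930184-37187661, beta at chr18:37264938-37524479 and gamma at chr18:37661793-37841873. The median alpha gene had 46.5% of its exon bases to itself in the GENCODE M21 annotation, the median beta gene 100% and the median gamma gene 55.3%. The remaining bases of alpha and gamma genes are mostly the constant exons. Reads of the constant exons do not identify a member, and an annotated transcript made only of constant gamma exons (Gm38182) had 0 counts in every library while members ranged up to 464. How reads that fit several paralogues were handled is not given in the sources used here, so values of near-identical members are uncertain.

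The total count per library was 13465241 to 29902246, and 16420 genes passed the filter on low counts and were tested. EV untreated replicate 1 stood apart: tested against its partners by chi-square over genes, it gave 16.0 and 15.1 per degree of freedom, and all other replicate pairs gave 1.96 to 5.06. Levels are given as CPM, the counts of a gene scaled to library size after TMM normalization. Ctcf, whose transcript is not the target of the degron, was called in none of the 6 comparisons. Its means were 325 CPM in EV untreated, 361 in EV auxin, 337 in FL auxin and 321 in H373R auxin. These values do not show whether FL and H373R CTCF were expressed, or expressed equally. The 7 embryonic stem cell markers, checked against the labelled cell type, summed to 4460 to 4711 CPM in EV untreated, 4233 to 4357 in EV auxin, 4205 to 4259 in FL auxin and 4105 to 4148 in H373R auxin. The 11 neural markers summed to 616 to 709 CPM per library, most of it from Stmn2 (group means of 374 to 416 CPM) and Tubb3 (142 to 178 CPM). The neuronal gene Dcx among them was near the detection limit throughout. It had means of 0.048 CPM in EV untreated and 0.058 CPM in FL auxin, and was at 0 in EV auxin and H373R auxin. In bulk RNA, fewer expressing cells and less RNA per cell cannot be told apart.

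The gamma cluster held nearly all protocadherin counts and lost part of them after CTCF depletion, the beta cluster was near the detection limit and became almost undetectable, and the alpha cluster was represented by Pcdhac2. Over the 11 libraries the gamma genes had 7233 counts, the beta genes 65 and the alpha genes 62. Summed gamma levels were 33.3 ± 0.46 in EV untreated (SD, n = 3), 20.97 ± 1.51 in EV auxin (SD, n = 2), 35.1 ± 1.36 in FL auxin (SD, n = 3) and 26.9 ± 1.40 in H373R auxin (SD, n = 3). The ranges of EV auxin (19.9 to 22.04 CPM) and H373R auxin (25.3 to 27.9 CPM) lay below EV untreated (32.8 to 33.7 CPM), and FL auxin (34.2 to 36.7 CPM) lay above it. The FL auxin sum hides opposite differences from EV untreated. Subfamilies A and B together had a mean of 12.97 CPM against 19.3 CPM, and subfamily C had 22.1 CPM against 13.97 CPM. No test was made on sums over chosen members.

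The beta cluster had 16, 16 and 19 counts in the EV untreated libraries, 1 and 0 in EV auxin, 4, 3 and 5 in FL auxin, and 1, 0 and 0 in H373R auxin. The groups were ordered without overlap, except that EV auxin and H373R auxin shared the bottom. Scaled for depth, the EV auxin to EV untreated ratio of the summed counts was 0.0366, with an exact 95% interval of 0.000909 to 0.213 that, like every interval here, covers counting error only. The ratio was 0.340 (exact 95% interval 0.165 to 0.647) for FL auxin and 0.0216 (0.000537 to 0.126) for H373R auxin. Pcdhb22 contributed most, with 6, 6 and 5 counts in EV untreated, 1 and 0 in EV auxin, 2, 0 and 3 in FL auxin and none in H373R auxin. Of the 22 beta genes 16 had a count in some library, and 14 of them had a count in EV untreated. Pcdhb22 (17 counts), Pcdhb8 (9) and Pcdhb14 (7) held most of the 51 EV untreated counts. Pcdhb4, Pcdhb5, Pcdhb9, Pcdhb12, Pcdhb16 and Pcdhb21 were at 0 in every library.

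Pcdhac2, the C-type gene at the 3′ end of the alpha cluster, had 56 of the 62 alpha counts. It had 3, 4 and 4 counts in EV untreated, 2 and 6 in EV auxin, 10, 3 and 3 in FL auxin, and 9, 7 and 5 in H373R auxin. The groups overlapped, and no difference was detectable at this depth: the EV auxin to EV untreated ratio was 1.36 with an exact 95% interval of 0.474 to 3.71, that of FL auxin 2.10 (0.917 to 5.01) and that of H373R auxin 2.11 (0.971 to 4.84). The other 12 alpha genes had 6 counts together, 5 of them in EV untreated, and Pcdha1, Pcdha2, Pcdha4, Pcdha7, Pcdha8, Pcdha11 and Pcdha12 were at 0 in every library. No row carried the symbol Pcdha10. In the GENCODE M21 annotation 2 gene identifiers share the symbol Pcdha11, so what its row counts is uncertain. A count of 0 allows a level of up to 0.0999 to 0.228 CPM, depending on the library, which is the value of 3 counts.

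**Figure D1:**
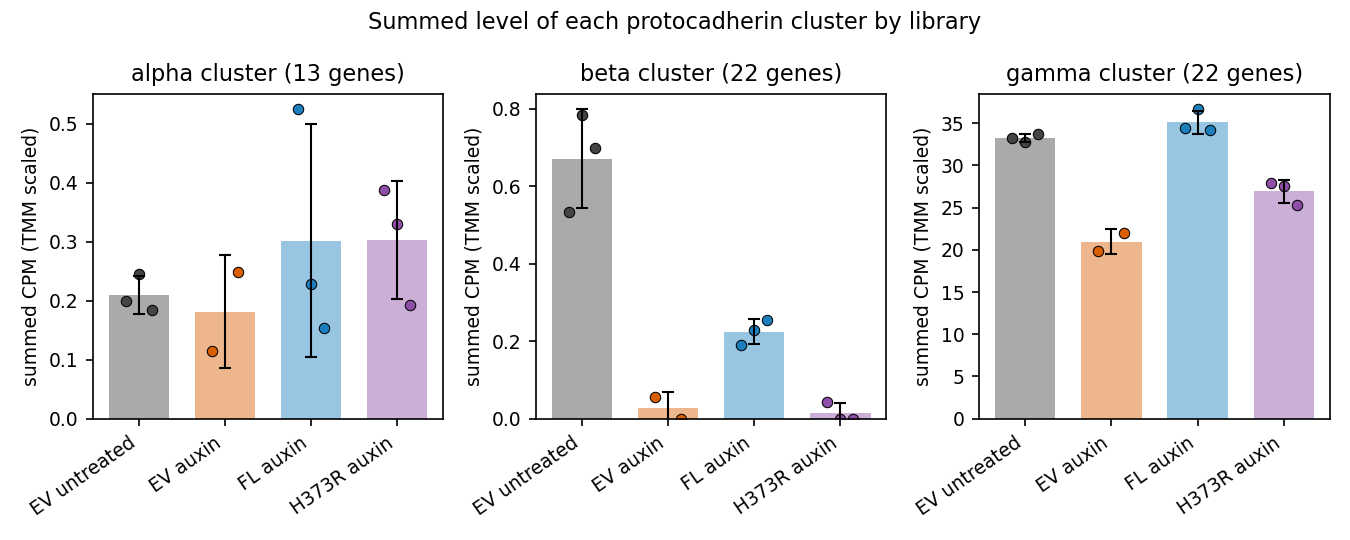
Summed CPM (TMM scaled) of the alpha, beta and gamma clusters, with a separate axis for each. Bars are group means, error bars the SD and points the libraries; gamma falls from 33.3 to 20.97 CPM in EV auxin, beta is at 1 and 0 counts there, and the alpha points overlap.

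Within the gamma cluster of EV untreated cells, levels were uneven along the row of genes. Divided by the length of exons a gene does not share, the highest levels in EV untreated were those of 3 genes near the 3′ end: Pcdhgc3 (3.88 CPM per kb), Pcdhga11 (1.55 CPM per kb) and Pcdhga12 (1.11 CPM per kb). The other 19 gamma genes lay between 0.023 CPM per kb (Pcdhga6) and 0.447 CPM per kb (Pcdhgb8). The scale is approximate, since constant-exon reads may have been assigned to some members. Pcdhga12 is the last variable exon before a gap, with its start 40.8 kb from that of Pcdhgc3, while neighbouring starts elsewhere in the cluster are 3.78 to 12.7 kb apart.

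After CTCF depletion, the tested gamma A and B genes other than Pcdhga12, the last of that row, were called lower, and the tested C-type genes downstream of it were not called. The filter on low counts left 16 members to test, all of them gamma genes: 9 of subfamily A, 5 of subfamily B and 2 of subfamily C. Of these, 7 (Pcdhga1, Pcdhga5, Pcdhga7, Pcdhga8, Pcdhga9, Pcdhga10 and Pcdhgb6) passed only through EV untreated, where they are high, so counts over the tested members describe them and support nothing. In EV auxin against EV untreated, 13 of the 16 passed the threshold as lower and 0 as higher, where 9.4% of all tested genes were called lower and 11.3% higher. The lower genes were 8 of 9 in subfamily A, 5 of 5 in subfamily B and 0 of 2 in subfamily C. Among the 9 members that did not rest on EV untreated alone, 6 were called lower. No EV auxin library reached the filter's cutoff for these 6, while both did for Pcdhga12, Pcdhgc3 and Pcdhgc5, which were not called. This subset therefore also depends on levels outside EV auxin, and nothing is read from its count. The median log2 fold change of the tested members was -2.31, also with genes at 0 set to their bound, beside 0.01 over all tested genes. This median and the split by subfamily include the 7 members that passed only through EV untreated, so nothing is read from them either. Calls come from the quasi-likelihood test of edgeR, with p-values adjusted by Benjamini-Hochberg over all tested genes and a threshold of 0.05.

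Pcdhga11, the most strongly expressed of the genes that fell, had 3.99, 4.16 and 4.08 CPM in EV untreated and 0.171 and 0.415 CPM in EV auxin. The groups were far apart, and the log2 fold change was -3.68 ± 0.24 (SE; adjusted p in edgeR = 2.82e-08). Its neighbour Pcdhgb8, annotated as a polymorphic pseudogene, had 1.33, 0.881 and 1.14 CPM against 0.0570 and 0.125 CPM. Again no library overlapped, with a log2 fold change of -3.49 ± 0.53 (SE; adjusted p in edgeR = 0.000231). Pcdhgb7, on the other side of Pcdhga11, had 1.03, 1.13 and 1.21 CPM against 0.342 and 0.166 CPM, a log2 fold change of -2.19 ± 0.38 (SE; adjusted p in edgeR = 0.000665).

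The low members are given as counts per library, which are not scaled for depth. Pcdhga7 had 22, 19 and 19 counts in EV untreated and 0 in both EV auxin libraries, which is at least 10.7-fold lower against a floor of 3 counts over the group (edgeR adjusted p = 5.00e-05). Pcdhga5 had 12, 10 and 15 counts against 0 and 0, at least 6.61-fold lower (edgeR adjusted p = 0.00321). These are the tested genes with no count at all after depletion, and both belong to subfamily A. Pcdhga10 had 28, 16 and 19 counts against 2 and 0, a ratio of 0.0593 (exact 95% interval 0.00702 to 0.223). Pcdhga8 had 23, 23 and 14 counts against 2 and 1, a ratio of 0.0933 (exact 95% interval 0.0187 to 0.286). Both were called lower, with edgeR adjusted p of 0.00108 and 0.00133. Pcdhga1, the first gene of the cluster, had 22, 14 and 42 counts against 2 and 2, with a log2 fold change of -3.31 ± 0.63 (SE; adjusted p in edgeR = 0.00151).

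The remaining called genes kept a few counts after depletion. Pcdhgb5 had 17, 12 and 19 counts against 4 and 4 (log2 fold change -1.65), and Pcdhgb6 16, 12 and 21 against 3 and 4 (log2 fold change -1.87). Pcdhga9 had 27, 15 and 10 counts against 4 and 1 (log2 fold change -2.42). No EV auxin library of these 3 genes reached the EV untreated range. Pcdhga2 had 13, 8 and 15 counts against 1 and 3, with a log2 fold change of -2.20 ± 0.71 (SE; adjusted p in edgeR = 0.0381). Pcdhgb4 had 12, 10 and 19 counts against 1 and 4, with a log2 fold change of -2.09 ± 0.67 (SE; adjusted p in edgeR = 0.0384). Both calls were lost without either EV auxin library, that of Pcdhga2 also without H373R auxin replicate 2, and that of Pcdhgb4 also without EV untreated replicate 2 or 3. Without EV auxin replicate 2, 6 members were called (Pcdhga1, Pcdhga7, Pcdhga10, Pcdhgb7, Pcdhga11 and Pcdhgb8), and these 6 stayed called whichever library was left out. EV auxin then has 1 library, assumed to vary like the other groups.

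Pcdhga12, whose start lies 3.78 kb downstream of that of Pcdhgb8, had 4.69, 5.38 and 5.03 CPM in EV untreated and 3.42 and 4.23 CPM in EV auxin. The libraries did not overlap, but the log2 fold change of -0.37 ± 0.13 (SE) missed the threshold (edgeR adjusted p = 0.0586). It passed under RLE scaling and without EV untreated replicate 1, at log2 fold changes of -0.38 and -0.43. Pcdhgc3, the C-type gene with the highest level of all members, had 13.5, 12.8 and 13.1 CPM against 13.7 and 15.2 CPM, a log2 fold change of 0.15 ± 0.09 (SE; adjusted p in edgeR = 0.274). Pcdhgc5 had 0.699, 0.440 and 0.845 CPM against 0.513 and 0.747 CPM, with overlapping groups and a log2 fold change of -0.07 ± 0.32 (SE; adjusted p in edgeR = 0.912). A missed threshold does not show that these 3 genes were unchanged.

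**Figure D2:**
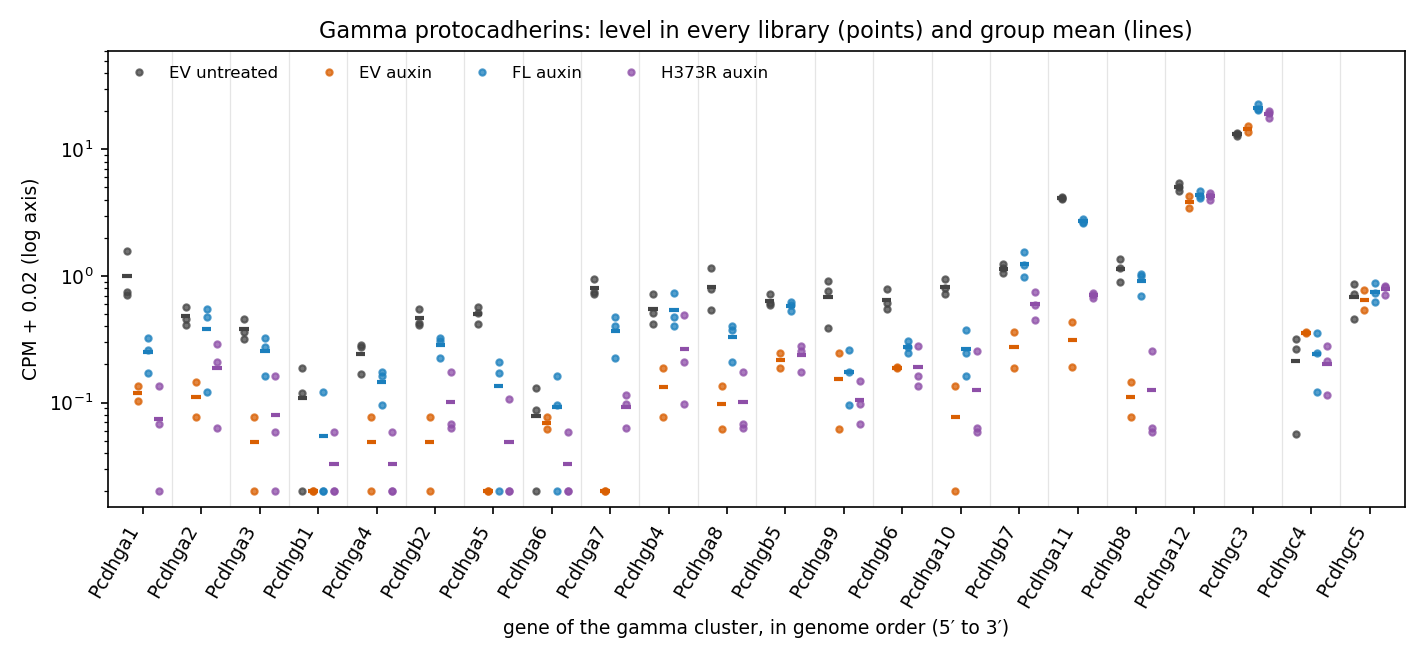
CPM + 0.02 (log axis) of the 22 gamma genes in genome order, with a point for each library and a line for each group mean. EV auxin points lie below EV untreated for Pcdhga11 (0.171 and 0.415 against 3.99 to 4.16 CPM), whereas Pcdhgc3 and Pcdhgc5 overlap or lie close together; points at the bottom edge are 0 counts.

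FL auxin libraries had higher levels than EV auxin for some of the gamma A and B genes and for Pcdhgc3. In FL auxin against EV auxin, 7 of the 16 tested members were called higher and 0 lower, where 11.1% of all tested genes were called higher and 13.4% lower. They were 2 of 9 in subfamily A (Pcdhga7 and Pcdhga11), 4 of 5 in subfamily B (Pcdhgb4, Pcdhgb5, Pcdhgb7 and Pcdhgb8) and 1 of 2 in subfamily C (Pcdhgc3). The median log2 fold change of the tested members was 1.89, or 1.67 with genes at 0 set to their bound, beside -0.01 over all tested genes. Of the called genes, only Pcdhgc3 reached the filter's cutoff in EV auxin, and the others entered the test through groups where they are higher. Nothing is therefore read from this count, its split by subfamily or the median. Pcdhgb4 was lost without any of 5 libraries (both EV auxin replicates, FL auxin replicates 2 and 3, H373R auxin replicate 2) and Pcdhgb5 without any of 3 (both EV auxin replicates, FL auxin replicate 1). The other 5 stayed called whichever library was left out.

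Pcdhga11 had 2.58, 2.66 and 2.80 CPM in FL auxin, above both EV auxin libraries (0.171 and 0.415 CPM) and below every EV untreated library. Its log2 fold change against EV auxin was 3.08 ± 0.26 (SE; adjusted p in edgeR = 1.83e-06). Pcdhgb8 had 0.668, 0.987 and 1.02 CPM, a log2 fold change of 3.12 ± 0.59 (SE; adjusted p in edgeR = 0.00144). Pcdhgb7 had 1.19, 1.52 and 0.969 CPM, a log2 fold change of 2.29 ± 0.39 (SE; adjusted p in edgeR = 0.000685). For these 3 adjacent genes no FL auxin library overlapped EV auxin. Pcdhga7 had 8, 6 and 4 counts against 0 and 0, at least 4.65-fold higher (edgeR adjusted p = 0.00196). Pcdhgb5 had 12, 8 and 10 counts (log2 fold change 1.51) and Pcdhgb4 8, 6 and 14 counts (log2 fold change 2.07, edgeR adjusted p = 0.0450).

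Most subfamily A genes were not called in FL auxin against EV auxin. Pcdhga1 had 5, 2 and 6 counts in FL auxin, Pcdhga5 4, 2 and 0, Pcdhga8 4, 5 and 7, and Pcdhga10 3, 3 and 7. Pcdhga9 had 5, 1 and 3 counts, Pcdhga2 11, 6 and 2, and Pcdhgb6 6, 3 and 5. The FL auxin to EV auxin ratio of the summed counts was 5.04 for Pcdhga10 (exact 95% interval 1.14 to 45.96), 4.13 for Pcdhga8 (1.18 to 22.1) and 3.68 for Pcdhga2 (1.22 to 14.9). It was 2.52 for Pcdhga1 (0.778 to 10.6), 1.39 for Pcdhga9 (0.42 to 5.30) and 1.55 for Pcdhgb6 (0.585 to 4.54). These intervals are wide, and for the first 3 genes they lie above 1 although the adjusted p missed the threshold. Pcdhga12 was at 4.25, 4.10 and 4.69 CPM (log2 fold change 0.17 ± 0.14, SE) and Pcdhgc5 at 0.859, 0.608 and 0.714 CPM (0.20 ± 0.33, SE).

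Set against EV untreated, FL auxin levels differed from gene to gene. In FL auxin against EV untreated 8 of the 16 were called lower, where 19.2% of all tested genes were called lower, and 1 higher (Pcdhgc3), where 17.7% were called higher. The 8 lower genes were 7 of subfamily A and Pcdhgb6. Of these 8, 7 are the members that entered the test only through EV untreated, and of the other 9 tested members 1 was called lower (Pcdhga11), so nothing is read from the count or from its split by subfamily. As a percentage of the EV untreated mean, FL auxin reached 109% for Pcdhgb7, 97.8% for Pcdhgb4, 91.3% for Pcdhgb5, 86.3% for Pcdhga12, 79.8% for Pcdhgb8 and 78.7% for Pcdhga2, all uncalled. It reached 23.5% for Pcdhga1, 23.8% for Pcdhga5, 23.4% for Pcdhga9 and 30.2% for Pcdhga10, all called lower. Pcdhgb6 (40.7%), Pcdhga8 (38.6%), Pcdhga7 (44.1%) and Pcdhga11 (65.7%) lay between and were called lower. Whether subfamilies A and B differ was not tested. The calls for Pcdhga1, Pcdhga9, Pcdhga11 and Pcdhgc3 stayed in every fit that left out a library and tested them. Those for Pcdhga5 and Pcdhga7 were lost without FL auxin replicate 3, Pcdhga10 without FL auxin replicate 1, Pcdhgb6 without EV untreated replicate 3, and Pcdhga8 without FL auxin replicate 1 or EV untreated replicate 2.

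**Figure D3:**
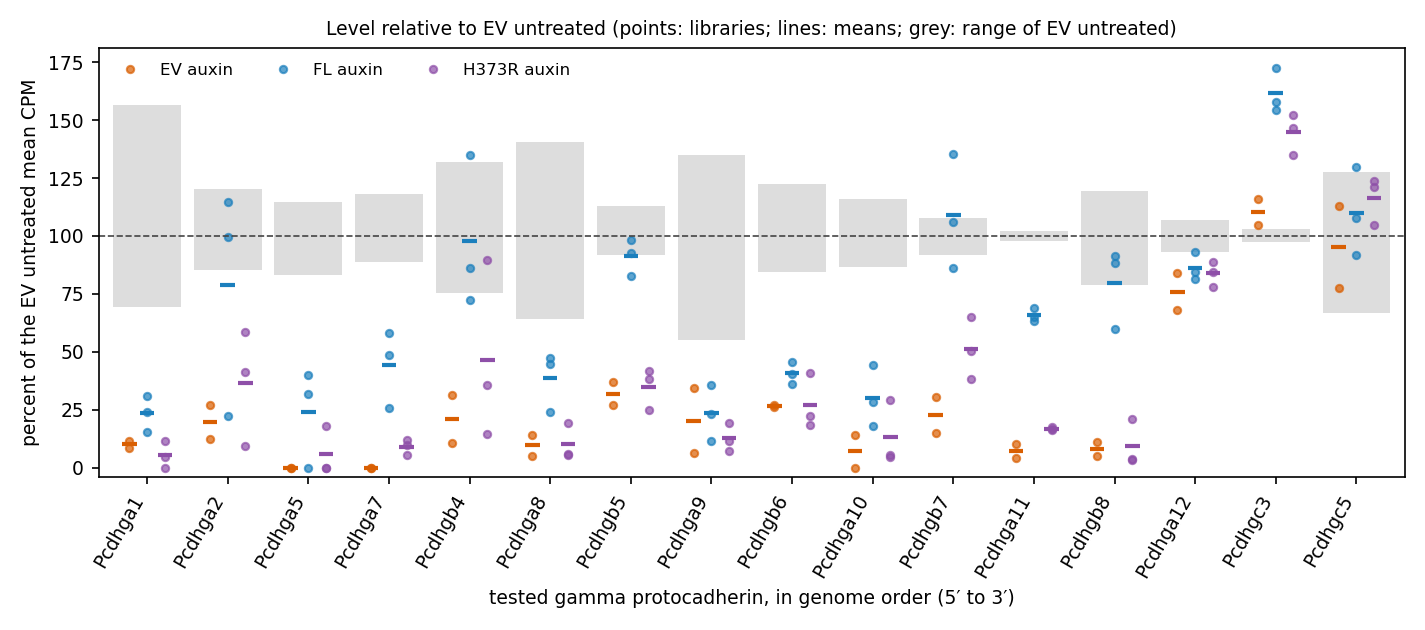
Level of the 16 tested gamma genes as a percentage of the EV untreated mean, in genome order, with points for libraries, lines for group means and a grey band for the EV untreated range. FL auxin means reach 109% at Pcdhgb7 but 23.5% at Pcdhga1, and EV auxin and H373R auxin means stay at or below 51.3% for all genes upstream of Pcdhga12.

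By group means, H373R auxin was nearer to EV auxin than to FL auxin for most gamma A and B genes. In H373R auxin against EV auxin 0 of the 16 tested members were called lower, where 11.7% of all tested genes were. Called higher were 2 of the 16, which is near the 10% of all tested genes called higher. These were Pcdhga11, at 0.688, 0.708 and 0.654 CPM (log2 fold change 1.12 ± 0.34, SE; edgeR adjusted p = 0.0388), and Pcdhgc3. Neither was called without EV auxin replicate 1, and the Pcdhga11 call was also lost without any of the 3 H373R auxin replicates. Pcdhgb7, at 0.430, 0.566 and 0.731 CPM, missed the threshold (log2 fold change 1.25 ± 0.43, SE; edgeR adjusted p = 0.0517) and passed it without EV untreated replicate 1 or H373R auxin replicate 1, at 1.26 and 1.43. Pcdhgb8, at 0.0430, 0.236 and 0.0385 CPM, overlapped EV auxin (log2 fold change 0.05 ± 0.90, SE; edgeR adjusted p = 0.979).

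Compared directly, H373R auxin was lower than FL auxin for 5 of the 16 tested members and higher for 0. Over all tested genes 2.82% were called lower and 3.14% higher. Of the called genes, Pcdhga7 passed the filter only through EV untreated. Pcdhgb5 and Pcdhgb8 reached its cutoff in every FL auxin library but in no H373R auxin library. Nothing is therefore read from the count of called members. Pcdhga11 differed by a log2 fold change of -1.97 ± 0.19 (SE; adjusted p in edgeR = 1.39e-05), with every H373R auxin library below every FL auxin library. Pcdhgb8 differed by -3.07 ± 0.49 (SE; adjusted p in edgeR = 0.00148), also without overlap. These 2 adjacent genes stayed called whichever library was left out. Pcdhga7, with 1, 2 and 2 counts in H373R auxin, differed by -2.15 ± 0.55 (SE; adjusted p in edgeR = 0.0341). Pcdhgb5 (6, 5 and 4 counts) differed by -1.37 ± 0.35 and Pcdhgb7 by -1.03 ± 0.27 (SE), with edgeR adjusted p of 0.0339 and 0.0377. Leaving out FL auxin replicate 1 or 2, or H373R auxin replicate 1 or 2, left 2 calls, and leaving out H373R auxin replicate 3 left 3. The Pcdhgb5 call was also lost without FL auxin replicate 3. Pcdhga12 (4.26, 4.48 and 3.92 CPM in H373R auxin) and Pcdhgc5 (0.817, 0.802 and 0.692 CPM) had log2 differences of -0.05 ± 0.12 and 0.05 ± 0.28 (SE) between H373R auxin and FL auxin and were not called.

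Against EV untreated, H373R auxin had 12 tested members called lower, where 22.1% of all tested genes were called lower, and 1 higher (Pcdhgc3), where 22.3% were called higher. The lower genes were 8 of 9 in subfamily A and 4 of 5 in subfamily B, and 7 of the 12 entered the test only through EV untreated. Of the other 9 tested members, 5 were called lower. Nothing is read from the count of 12 or from its split by subfamily. Among the 12 lower genes, H373R auxin means ranged from 5.49% (Pcdhga1) to 51.3% (Pcdhgb7) of EV untreated. Pcdhga1 had 0, 1 and 3 counts, Pcdhga8 1, 1 and 4, Pcdhga10 1, 5 and 1, and Pcdhga9 3, 1 and 2. Pcdhga5 had 2, 0 and 0 counts, a ratio to EV untreated of 0.0596 (exact 95% interval 0.00696 to 0.231). Pcdhgb6 had 6, 3 and 3 counts and Pcdhga2 1, 4 and 7, and Pcdhga2 lost its call without EV auxin replicate 1, H373R auxin replicate 1 or H373R auxin replicate 2. Pcdhgb4 (11, 4 and 2 counts) was not called, at a log2 fold change of -1.11. Pcdhga12 had a log2 fold change of -0.25 ± 0.11 (SE; adjusted p in edgeR = 0.0809) and passed the threshold without EV untreated replicate 1, at -0.31.

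Pcdhgc3 was the tested member called higher in both reintroduction groups against EV untreated as well as against EV auxin. It had 20.7, 22.6 and 20.2 CPM in FL auxin and 19.96, 19.2 and 17.7 CPM in H373R auxin, all above the 5 EV libraries. Against EV untreated the log2 fold change was 0.69 ± 0.08 for FL auxin and 0.53 ± 0.08 for H373R auxin (SE; adjusted p in edgeR = 8.67e-06 and 4.56e-05). Against EV auxin it was 0.54 ± 0.09 and 0.38 ± 0.09 (SE; adjusted p in edgeR = 0.000461 and 0.00541). These comparisons share control libraries and are not independent. Between the reintroduction groups the log2 difference of H373R auxin from FL auxin was -0.16 ± 0.07 (SE; adjusted p in edgeR = 0.252). Pcdhgc3 has an annotated antisense partner, BC037039, with 35 counts in all libraries, and whether counting used strand is not given.

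The make-up of the gamma counts moved with these levels. Subfamily C supplied 41.99% ± 1.35 of gamma counts in EV untreated (SD, n = 3), 73.6% ± 0.33 in EV auxin (SD, n = 2), 63.0% ± 1.30 in FL auxin (SD, n = 3) and 74.0% ± 1.28 in H373R auxin (SD, n = 3). EV auxin and H373R auxin overlapped, and the other groups stood apart. Its summed level was 13.97 ± 0.51 CPM in EV untreated (SD, n = 3), 15.4 ± 1.18 in EV auxin (SD, n = 2), 22.1 ± 1.22 in FL auxin (SD, n = 3) and 19.9 ± 1.24 in H373R auxin (SD, n = 3). Subfamily B summed to 4.55 ± 0.38, 0.851 ± 0.09, 3.75 ± 0.36 and 1.41 ± 0.10 CPM in the same order. Subfamily A without Pcdhga12, a split chosen after the values were seen, summed to 9.71 ± 0.16, 0.858 ± 0.16, 4.87 ± 0.16 and 1.36 ± 0.25 CPM. On these sums FL auxin lay between EV untreated and EV auxin for subfamilies A and B and above both for subfamily C. Its ratio to EV untreated was 0.501 for subfamily A without Pcdhga12 (exact 95% interval 0.434 to 0.578) and 0.808 for subfamily B (0.676 to 0.964), and the difference between these subfamilies was not tested. The log2 ratio of the whole gamma sum, EV auxin to EV untreated, was -0.67, and without Pcdhgc3 it was -1.63.

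**Figure D4:**
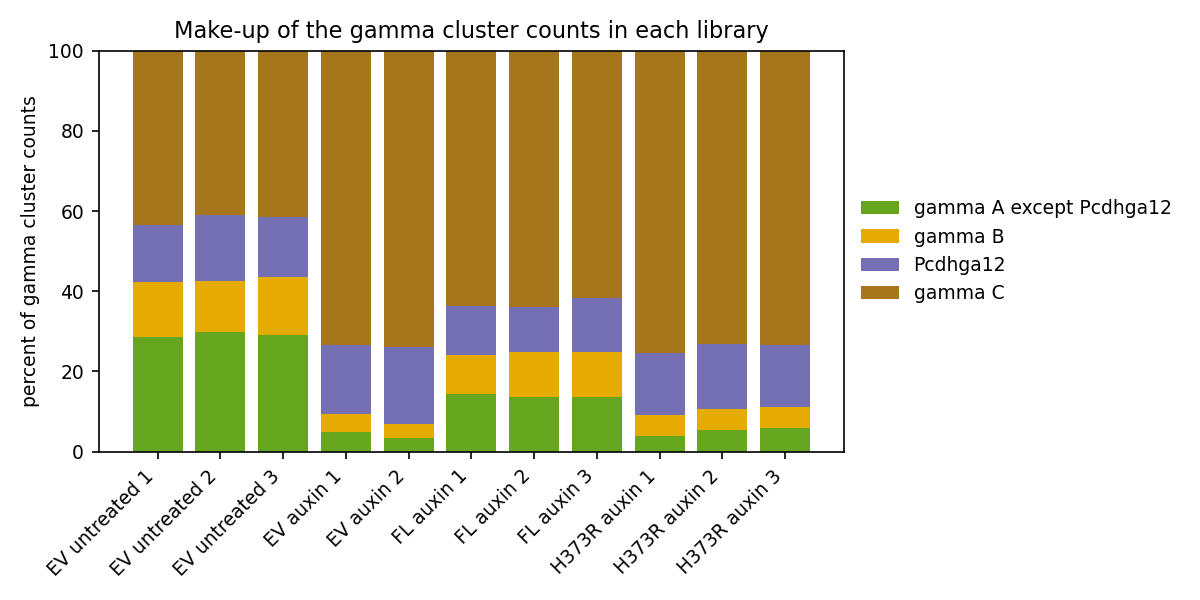
Percentage of the gamma cluster counts in each of the 11 libraries that came from subfamily A without Pcdhga12, subfamily B, Pcdhga12 and subfamily C. Subfamily C takes 41.0% to 43.5% in EV untreated, 73.4% and 73.8% in EV auxin, 61.5% to 63.98% in FL auxin and 73.1% to 75.5% in H373R auxin.

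The 6 gamma genes below the filter were Pcdhga3, Pcdhga4, Pcdhga6, Pcdhgb1, Pcdhgb2 and Pcdhgc4. Pcdhgb2, the one of them with the most counts, had 35 counts over the EV untreated libraries, 1 in EV auxin, 14 in FL auxin and 6 in H373R auxin. Pcdhga3 had 28, 1, 12 and 4 counts and Pcdhga4 18, 1, 7 and 1 in the same order. Pcdhgc4, the C-type gene between Pcdhgc3 and Pcdhgc5, had 15, 14, 12 and 13 counts, which scaled for depth is a mean of 0.194, 0.337, 0.221 and 0.182 CPM. Its EV auxin to EV untreated ratio was 1.74 with an exact 95% interval of 0.779 to 3.87, so neither direction was detectable. Pcdhga6 had 12 counts in all, with its highest mean in FL auxin (0.073 CPM), and Pcdhgb1 had 10. Scaled for depth, Pcdhga3, Pcdhga4, Pcdhgb1 and Pcdhgb2 had their highest mean in EV untreated. Without the filter, all 44 members with a count entered the fit: 15 gamma genes were called lower in EV auxin than in EV untreated, where 5.61% of all genes were, and Pcdhga3 and Pcdhgb2 were the additional ones. Pcdhgb2 was also called higher in FL auxin than in EV auxin in that fit, where 6.64% of all genes were. H373R auxin against EV untreated then had 18 members lower, where 12% of all genes were, among them Pcdhb8 and Pcdhb22 of the beta cluster. No alpha gene was called in either of these comparisons.

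Genes that act on protocadherin genes or proteins were taken from lists of their own. The first list held 10 genes of CTCF and the cohesin machinery, which extrudes the loops that join protocadherin promoters to enhancers. In EV auxin against EV untreated 0 of them were called, beside 11.3% higher and 9.4% lower over all tested genes. An unadjusted p under 0.05 in edgeR was reached by 3 (Ctcf, Stag1 and Pds5a). This is near the background, since 5366 of the 16420 tested genes reached it. Nipbl, the cohesin loader, was not called in that comparison and was called lower in both reintroduction groups against either EV group. It fell from 180 ± 20.3 CPM in EV untreated (SD, n = 3) to 124 ± 13.5 in FL auxin (SD, n = 3) and 115 ± 8.80 in H373R auxin (SD, n = 3). Against EV untreated, 4 of the 10 were called lower and 1 higher in FL auxin, beside 19.2% and 17.7% of all tested genes. In H373R auxin 6 were lower and 1 higher, beside 22.1% and 22.3%. Against EV auxin, 2 were lower in FL auxin (13.4% of all tested genes) and 4 in H373R auxin (11.7%), with 0 higher (11.1% and 10%). Among 9 genes of silencing and DNA methylation, which acts on protocadherin promoters, 3 were called higher (Dnmt3a, Dnmt3b and Wiz) and 1 lower (Rest) in EV auxin against EV untreated, beside 11.3% higher and 9.4% lower over all tested genes. Dnmt3b, a de novo DNA methyltransferase, had a log2 fold change of 0.36 ± 0.05 (SE). Rest, a repressor of neuronal genes, fell by 0.20 ± 0.06 (SE) on the log2 scale, and was at 118 ± 6.62 CPM in FL auxin and 109 ± 5.35 in H373R auxin against 201 ± 7.88 in EV untreated (SD, n = 3 each). Among 11 genes of protein partners and processing, 1 was called higher (Axin1) and 3 lower (Rac1, Nckap1 and Cyfip1) in the same comparison, beside the same shares. Nckap1, a subunit of the actin-regulating WAVE complex that protocadherins bind, had a log2 fold change of -0.60 ± 0.07 (SE) and Cyfip1, of the same complex, -0.16 ± 0.05 (SE).

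Of 11 tested genes around the clusters, 1 was called higher (Arap3, log2 fold change 0.24 ± 0.07, SE) and 0 lower in EV auxin against EV untreated, with 4 at an unadjusted p under 0.05 in edgeR. Over all tested genes 11.3% were called higher and 9.4% lower, and 5366 of 16420 had an unadjusted p under 0.05. Both counts are therefore near the background. Taf7, a transcription initiation factor gene located between the beta and gamma clusters, had 154 ± 12.2 CPM in EV untreated (SD, n = 3), 146 ± 1.26 in EV auxin (SD, n = 2), 156 ± 9.21 in FL auxin (SD, n = 3) and 147 ± 3.20 in H373R auxin (SD, n = 3), with no call in any comparison. Hdac3, on the 3′ side of the gamma cluster, was called higher in H373R auxin than in EV auxin (0.32 ± 0.06, SE).

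Markers of another cell type moved with the reintroduction groups. All 6 primitive endoderm markers (Gata4, Gata6, Sox17, Dab2, Foxa2 and Pdgfra) were called higher in FL auxin and in H373R auxin than in EV auxin, where 11.1% and 10% of all tested genes were, and none was at 0. Their summed level was 26.2 to 29.0 CPM in EV untreated, 28.2 to 30.01 in EV auxin, 95.7 to 105 in FL auxin and 58.7 to 65.0 in H373R auxin. Of the 4 tested fibroblast markers, 3 were called higher in FL auxin than in EV auxin, with summed levels of 56.0 to 61.1 CPM in EV auxin and 77.0 to 91.9 in FL auxin, while Postn was at 0 in FL auxin and H373R auxin. Of the 8 tested neural markers, 1 was called higher and 4 lower in FL auxin than in EV auxin, beside 11.1% higher and 13.4% lower over all tested genes. The part of these marker changes in the protocadherin values of FL auxin and H373R auxin was not tested. In EV auxin against EV untreated, 1 of the 6 primitive endoderm markers (Gata4) was called, higher, and the summed ranges overlapped. Of the neural markers 2 were called higher and 3 lower there, and of the 7 embryonic stem cell markers 1 higher and 3 lower, beside 11.3% higher and 9.4% lower over all tested genes. Their part in the gamma values was not tested either.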

How the data were processed

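RNA was sequenced from 11 libraries with the NEBNext Ultra II Directional kit, per the labels. The count table holds whole-number counts per gene as deposited, and the submitters' processing notes name featureCounts, Subread 2.0.3, DESeq2 and mm10 (GRCm38). The aligner, annotation release, strand setting and treatment of multi-mapping reads are not given in the sources used here. The authors also deposited TPM values, normalized for gene length and library size, which were used for limma alternatives only.

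Counts were filtered with filterByExpr, TMM scaled and fitted in edgeR 4.0.16 (R 4.3.3) with a mean per group over all 11 libraries. Calls used quasi-likelihood tests, Benjamini-Hochberg adjustment over all 16420 genes and a threshold of 0.05. Scripts were tested on simulated data. The filter passed genes with 10 counts or more, scaled for depth, in enough libraries.

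Folds against a group with 0 counts are lower bounds against 3 counts over the group. With 1 to 3 counts the ratio is given with an exact 95% interval. GENCODE M21 gave positions. Tested members are named with every library's value. Other members are named only if they had the most counts in their cluster or were at 0, otherwise after their values were seen. The members, the lists (regulators, silencing, partners, neighbours and markers of embryonic stem cells, primitive endoderm, fibroblasts and neural cells) and the tests were chosen with earlier results of these data known. Alternatives were other scalings, filters, DESeq2 1.42.0, limma 3.58.1 on log2(TPM + 1) or log2(TPM + 0.1), a replicate block and leaving out each library. EV auxin replicates beyond these 2 are not analysed here.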

Additional observations from a re-analysis of the deposited data

How the results depend on the processing

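Counts of called members differed between settings. With at least 10 counts required in every library, the calls were 0 in EV auxin against EV untreated, 1 in FL auxin against EV auxin, 1 in H373R auxin against EV auxin, 0 in H373R auxin against FL auxin, 1 in FL auxin against EV untreated and 1 in H373R auxin against EV untreated, with 2 members in that fit. DESeq2 called 5, 4, 1, 2 and 5 in the first 5 of these comparisons, having given an adjusted p to 10 members in the first. With limma on log2(TPM + 1) the counts in the same order were 1, 2, 1, 1, 2 and 2, and on log2(TPM + 0.1) they were 1, 2, 2, 1, 1 and 2, with 3 members in the fit. Without the filter on TPM, limma called 1 in H373R auxin against EV auxin and 2 in H373R auxin against FL auxin, and edgeR without its filter called 1 in H373R auxin against EV auxin. Without Pcdhgc3 the log2 ratio of the gamma sum was -1.63 for EV auxin to EV untreated, 1.10 for FL auxin to EV auxin and -0.81 for H373R auxin to FL auxin, against -0.67, 0.74 and -0.38 with it.

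Leaving out each library in turn gave 6 to 13 calls in EV auxin against EV untreated, 5 to 8 in FL auxin against EV auxin, 0 to 3 in H373R auxin against EV auxin, 2 to 5 in H373R auxin against FL auxin, 6 to 9 in FL auxin against EV untreated and 11 to 14 in H373R auxin against EV untreated. The values that changed sign were all uncalled. For Pcdhgc5 they ranged from -0.41 to 0.14 in EV auxin against EV untreated, -0.0091 to 0.54 in FL auxin against EV auxin, -0.039 to 0.19 in H373R auxin against FL auxin and -0.043 to 0.32 in FL auxin against EV untreated. For Pcdhga12 they ranged from -0.0082 to 0.30 in H373R auxin against EV auxin and -0.10 to 0.0074 in H373R auxin against FL auxin, and for Pcdhgb8 from -1.12 to 0.75 in H373R auxin against EV auxin. Of 699 single-gene values with a library left out, 635 kept direction and side of the threshold.

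Replicate numbers are shared between groups, and the labels do not say whether a number pairs samples, so the main fit treats them as unpaired. Of 15 same-numbered pairs 3 correlated above 0.1, and of 30 other pairs 1 did, which does not settle whether numbers mark pairs. With the replicate number as a block the calls were 11, 6, 2, 4, 9 and 13, and 7 of 11 libraries correlated best with their own number. The cause of these differences was not tested. Depth limits the alpha and beta clusters, where no member reached the filter.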

Other observations

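The span of the 3 clusters holds 27 further annotated genes, of which 15 had 0 counts in every library. The lincRNA 3222401L13Rik (chr18:37655451-37661742, plus strand), which ends just upstream of Pcdhga1, had 25, 13 and 32 counts in EV untreated, 8 and 6 in EV auxin, 15, 14 and 19 in FL auxin and 17, 10 and 16 in H373R auxin. Its level was 0.881 ± 0.273 CPM in EV untreated (SD, n = 3), 0.353 ± 0.146 in EV auxin (SD, n = 2), 0.916 ± 0.180 in FL auxin (SD, n = 3) and 0.606 ± 0.130 in H373R auxin (SD, n = 3). It was chosen after its values were seen, and no test of it is reported here. Antisense transcripts of the gamma cluster had few counts: Gm26672, which overlaps exons of Pcdhga10, Pcdhgb7, Pcdhga11 and Pcdhga12, had group sums of 18, 7, 21 and 13 counts in the order above, and BC037039, which overlaps Pcdhgc3, had 12, 6, 6 and 11. The transcripts annotated across several clusters (Gm42416, Gm37013 and Gm37388) were at 0 in every library.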
